A study of Mus musculus with 5 samples.

Results

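The cells described here are plasma cells of the spleen that make IgM with a kappa light chain and that were sorted without B220 and without uptake of 2NBDG. They were chosen by their own transcripts. A cell of the spleen B220-2NBDG- library was taken when it held 10 or more UMIs (unique molecular identifiers, each standing for 1 captured mRNA) over the 7 heavy chain genes Ighm, Ighg1, Ighg2b, Ighg2c, Ighg3, Ighe and Igha, when at least 70% of them came from Ighm, and when Igkc gave at least 70% of its light chain UMIs. This took 918 of the 1296 barcodes of the library, or 70.8% (exact 95% binomial interval 68.3 to 73.3%, counting error only), out of 5476 barcodes in all 5 libraries. Igkc was set against Iglc2, and Iglc1 and Iglc3 were not analysed here, so the IgM lambda cells below are cells called by Iglc2. In this library 49 IgM cells were called neither kappa nor lambda. Their median Igkc share was 1.34% of immunoglobulin UMIs.

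All mice were male, of strain C57Bl6/N, 8 to 12 weeks old, untreated and unimmunized, and each library pooled cells of 3 mice, which cannot be told apart. Sorted cells were CD138-high, Ly6g- and CD11c-, and gates differed in B220, an isoform of CD45 carried by B cells, and in 2NBDG, a fluorescent glucose analog. The 918 IgM kappa cells were set against 558 IgM cells of spleen B220-2NBDG+, 710 of spleen B220+2NBDG-, 441 of spleen B220+2NBDG+ and 294 of bone marrow B220-2NBDG+, of either light chain, and against 113 IgM lambda and 135 IgA cells of their own library. With 1 library per gate there was no replicate error, so ratios carry exact conditional binomial intervals for counting error only, and the same IgM kappa cells enter every comparison.

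A plasma cell is the antibody-secreting end stage of a B cell. It expresses 1 heavy and 1 light chain, and the light chain's specificity is set by which V gene was joined during B cell development; IgM is secreted as a polymer held together by the joining chain. Plasma cell identity rests on the transcription factors Blimp-1, XBP1 and IRF4, which act while B cell factors such as PAX5 and EBF1 and B cell surface proteins such as CD20 are shut down, and B220 is lost as the cells mature.

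A kappa V gene could be assigned to 864 of the 918 IgM kappa cells, and levels of Ebf1 and some other genes in them differed by V gene, so the 5 most frequent V genes are shown. Each line gives the last 60 bases of the germline V gene, 5′ to 3′ on the coding strand, from the GENCODE M21 transcripts (GRCm38), with the codon of the conserved cysteine that opens the third complementarity-determining region in capitals. All 5 genes lie on chromosome 6: Igkv3-4 at chr6:70671788-70672377 on the plus strand, Igkv5-39 at chr6:69900424-69900977 on the minus strand, Igkv1-117 at chr6:68121046-68121827, Igkv1-135 at chr6:67609713-67610508 and Igkv1-110 at chr6:68270485-68271267, the last 3 on the plus strand.
Igkv3-4: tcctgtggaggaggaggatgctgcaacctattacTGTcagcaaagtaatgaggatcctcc
Igkv5-39: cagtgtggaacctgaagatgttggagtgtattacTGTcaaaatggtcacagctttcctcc
Igkv1-117: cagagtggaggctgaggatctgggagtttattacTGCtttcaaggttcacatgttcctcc
Igkv1-135: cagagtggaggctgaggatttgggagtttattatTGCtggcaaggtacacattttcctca
Igkv1-110: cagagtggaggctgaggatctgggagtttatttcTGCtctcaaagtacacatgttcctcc
In each gene 23 bases follow the cysteine codon.

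The IgM kappa cells carried the transcripts that their label names. Ighm gave a median of 99.0% of a cell's heavy chain UMIs (lowest 72.4%) and Igkc a median of 98.8% of its light chain UMIs (lowest 70.6%). Both shares were used to choose the cells and are no finding. Few cells lay near the limits: 1 member had an Ighm share of 70 to 75%, against 0 kappa cells just outside it at 65 to 70%, and 3 members had an Igkc share of 70 to 75%, against 3 IgM cells at 65 to 70%. Igkc made up a median of 66.4% of the immunoglobulin UMIs of the IgM kappa cells, against 0.657% in the IgM lambda cells of the same library, where kappa transcripts are taken as background. In 3 members Igkc was under 10% of the immunoglobulin UMIs. Plasma cell genes were high: Jchain, the joining chain, gave 245587 CPM (counts scaled to a total of 1e6 non-immunoglobulin UMIs), Xbp1 3245 CPM, Sdc1, which encodes CD138, 493 CPM, Irf4 99.9 CPM and Prdm1, which encodes Blimp-1, 53.8 CPM. Pax5 had 0 UMIs, and Ptprc, which encodes all forms of CD45 and so cannot report B220 in a 3′ library, stood at 61.8 CPM. Of the defining genes of other cells, 0 UMIs were found for Cd3e, Cd8a, Lyz2, Adgre1 and C1qa. Their lists summed to 17.8 CPM for T cells, 20.6 CPM for macrophages or monocytes, 4.01 CPM for NK cells, 1.15 CPM for erythroid cells, 0.573 CPM for neutrophils, 18.0 CPM for dendritic cells, 30.1 CPM for endothelial cells, 1.43 CPM for megakaryocytes, 0.286 CPM for mast cells or basophils and 0 for stromal cells. The plasmacytoid dendritic cell list summed to 1112 CPM in the IgM kappa cells, against 934 to 3515 CPM in the IgM cells of the other 4 libraries; it was carried by Ly6c2, Bst2, Tcf4 and Cox6a2, while its members Siglech and Klk1 had 0 UMIs.

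The median IgM kappa cell held 9912 UMIs, of which 3539.5 were not immunoglobulin, against medians of 4293 to 6514.5 non-immunoglobulin UMIs in the IgM cells of the other 4 libraries. Immunoglobulin genes took 64.7% of the UMIs of the IgM kappa cells, against 58.0% in spleen B220-2NBDG+, 48.7% in spleen B220+2NBDG-, 64.0% in spleen B220+2NBDG+ and 59.6% in bone marrow. Levels below are CPM of the non-immunoglobulin UMIs unless another scale is named. Dividing by all UMIs instead shifts every gene by the same factor within a comparison: the median log2 ratio of 5882 genes with a mean of at least 10 CPM, against the mean log2 level of the 4 libraries, is −0.03 as scaled here and −0.28 by all UMIs. List medians are therefore read against the median of all genes. Cells called cycling, with 3 or more cell cycle UMIs among 1000, numbered 9 of the IgM kappa cells (0.980%), against 0 in spleen B220-2NBDG+, 88 (12.4%) in spleen B220+2NBDG-, 2 in spleen B220+2NBDG+ and 0 in bone marrow. There were 20 genes, most of them pseudogenes or near copies, that set spleen B220+2NBDG- and spleen B220-2NBDG+ apart from the other 3 libraries in all their cells, and 5 of the 918 barcodes also occurred in another library.

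Spns3 and Bcl2, which mark these cells in the label, were not particular to them. Spns3, a member of the spinster family of membrane transporters (chr11:72494919-72550506), stood at 56.7 CPM in the IgM kappa cells, against 53.1 CPM in spleen B220-2NBDG+, 3.50 CPM in spleen B220+2NBDG-, 15.001 CPM in spleen B220+2NBDG+ and 80.6 CPM in bone marrow. The 3 B220-negative groups were high and both B220-positive groups low, and the ratio to spleen B220-2NBDG+ was 1.07 (0.850 to 1.34). Within the library, Spns3 was at 59.9 CPM in IgM lambda cells and at 5.15 CPM in IgA cells. Thinned to 1000 non-immunoglobulin UMIs, 4.50% of the IgM kappa cells (3.25 to 6.05%) held a Spns3 UMI, against 5.57%, 0.283%, 0.913% and 8.19% in the 4 libraries in the same order and 0.752% of IgA cells; without thinning the share was 17.6%.

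Bcl2, which encodes a protein that blocks cell death (chr1:106538178-106714274), was at 159 CPM in the IgM kappa cells, against 139 CPM in spleen B220-2NBDG+, 54.9 CPM in spleen B220+2NBDG-, 65.5 CPM in spleen B220+2NBDG+ and 103 CPM in bone marrow. On the scale of non-immunoglobulin UMIs the IgM kappa cells were the highest of the 5, by 1.15 times (1.002 to 1.32) over spleen B220-2NBDG+ and by 1.54 times (1.31 to 1.83) over bone marrow. Scaled to all UMIs this order turns: Bcl2 was at 56.3 CPM of all UMIs in the IgM kappa cells, against 58.3 CPM of all UMIs in spleen B220-2NBDG+, a ratio of 0.965, and the ratio to bone marrow is 1.35. IgM lambda cells of the library had 154 CPM and IgA cells 42.9 CPM. A Bcl2 UMI was found in 15.1% of thinned IgM kappa cells, against 12.2%, 7.36%, 6.16% and 5.80% in the 4 libraries in the same order. Thinned to 1500 UMIs the share was 19.2%, against 19.0%, 7.56%, 8.84% and 14.7%. At that depth the IgM kappa cells and spleen B220-2NBDG+ were alike, and bone marrow lay above both B220-positive groups.

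The first question was which genes set the IgM kappa cells apart from IgM cells of every other gate. Of 4230 genes tested, 2 were at least 2-fold above the highest of the 4 libraries (0.0473%) and 0 were at least 2-fold below the lowest (0%), where the higher value had to reach 25 CPM and 50 UMIs. One of these was mt-Atp8. With 1 library left out of the 4, 5 genes were higher without spleen B220-2NBDG+, 7 without spleen B220+2NBDG- and 4 without spleen B220+2NBDG+.

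The gene mt-Atp8, for a mitochondrially encoded subunit of ATP synthase, is one of the 20 genes that differ between whole libraries. It was at 836 CPM in the IgM kappa cells, against 110, 82.3, 295 and 320 CPM in the 4 libraries in the same order. IgM lambda and IgA cells of the same library had 745 and 911 CPM, so the difference covers all cells of the library. The other mitochondrially encoded genes did not follow it: the list of 11 had a median log2 ratio of −0.08 to the mean of the 4 libraries, with 3 above 0.

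**Figure D1:**
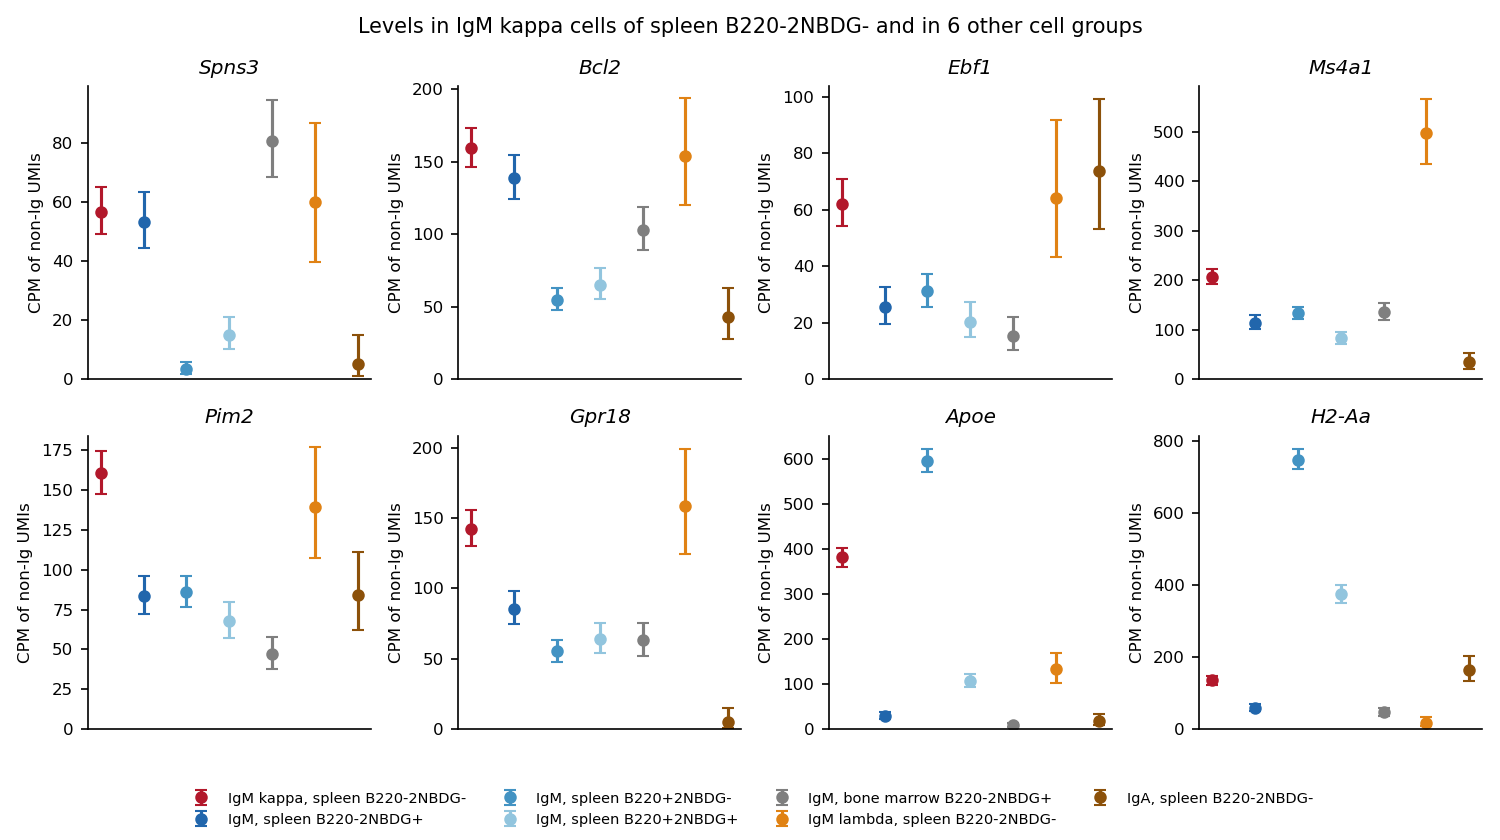
Levels of 8 genes in CPM of non-immunoglobulin UMIs for the IgM kappa cells and 6 other groups; points are values of summed UMIs and bars exact 95% Poisson intervals (counting error only). Spns3 is high in the 3 B220-negative IgM groups, while Ebf1, Ms4a1, Pim2 and Gpr18 are higher in the IgM kappa cells than in the IgM cells of all 4 other libraries.

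At 1.5-fold outside the range, a limit chosen after the data were seen, 15 genes were higher (0.355%) and 7 were lower (0.165%). The higher genes included mt-Atp8, Ebf1, Pim2, Gm26740, Pde4b, Gpr18, Yae1d1, Itm2a, Gm19585, Samsn1, Lag3, Shisa8, Vpreb3 and Ms4a1. Several of them belong to B cells. Ebf1, a transcription factor that specifies the B lineage, was at 62.1 CPM in the IgM kappa cells, against 25.5, 31.2, 20.5 and 15.4 CPM in spleen B220-2NBDG+, spleen B220+2NBDG-, spleen B220+2NBDG+ and bone marrow, 1.99 times (1.58 to 2.52) the nearest. Ms4a1, which encodes CD20, was at 207 CPM in the IgM kappa cells, against 115, 134, 83.6 and 137 CPM in the 4 libraries. The ratio of Ms4a1 to the nearest library was 1.52 (1.31 to 1.75), and 1.06 when scaled to all UMIs; that of Ebf1 was then 1.37, that of Pim2 1.29, that of Gpr18 1.40 and that of Lag3 1.31. Vpreb3, a chaperone of immunoglobulin assembly in B cells, was at 56.1 CPM in the IgM kappa cells, against 36.7, 32.0, 28.6 and 30.2 CPM. These 3 genes were above all 4 libraries by less than 2-fold.

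Other genes of the set act in signalling. Pim2, a kinase that promotes survival, was at 161 CPM in the IgM kappa cells, against 83.6, 85.8, 67.7 and 47.2 CPM in the 4 libraries in the same order. Pde4b, which degrades cyclic AMP, was at 42.9 CPM in the IgM kappa cells, against 20.2, 19.1, 25.5 and 16.4 CPM. Lag3, an inhibitory receptor also found on plasma cells, was at 122 CPM in the IgM kappa cells, against 78.3, 50.03, 40.5 and 58.3 CPM. Gpr18, a G protein-coupled receptor, was at 143 CPM in the IgM kappa cells, against 85.7, 55.1, 64.1 and 63.1 CPM. For Pim2, Lag3 and Gpr18 the level was 1.87 (1.63 to 2.15), 1.55 (1.31 to 1.85) and 1.66 (1.41 to 1.97) times that of the nearest library. IgM lambda cells of the library held like levels of Ebf1 (64.2 CPM), Pim2 (139 CPM), Gpr18 (158 CPM) and Pde4b (38.5 CPM). Vpreb3 was higher in the other cells of the library, at 109 CPM in IgM lambda and 209 CPM in IgA cells. IgA cells of the library shared Ebf1 (73.8 CPM) but had little Gpr18 (5.15 CPM) or Lag3 (6.86 CPM).

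The 7 lower genes were Ddx49, Ppp1r18, Rps28, Gm10263, Bhlhe41, Rpia and Ada. Bhlhe41, a transcription factor needed by B-1 cells, was at 45.8 CPM in the IgM kappa cells, against 74.1, 75.04, 84.1 and 144 CPM in spleen B220-2NBDG+, spleen B220+2NBDG-, spleen B220+2NBDG+ and bone marrow. Ada, adenosine deaminase, was at 36.1 CPM in the IgM kappa cells, against 59.7, 116, 87.7 and 58.8 CPM. Rpia, an enzyme of the pentose phosphate pathway, was at 59.0 CPM in the IgM kappa cells, against 109, 102, 95.9 and 118 CPM. Most of these genes were also low in the other cells of the library. In IgM lambda and IgA cells Rps28 was at 1100 and 1269 CPM, against 1067 CPM in the IgM kappa cells. Bhlhe41 was at 27.8 and 42.9 CPM, and Ada at 25.7 and 49.75 CPM. Gm10263 was at 19.3 and 15.4 CPM, and Ddx49 at 19.3 and 22.3 CPM. Rpia was at 17.1 CPM, from 8 UMIs, and at 41.2 CPM. Apart from Ppp1r18 in IgA cells (60.04 CPM), each level was below all 4 libraries. The lower levels were thus not particular to the IgM kappa cells.

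Gene lists were then read across the 4 libraries, as the log2 level of the IgM kappa cells minus the mean log2 level of the 4 IgM groups; over all 5882 genes the median was −0.03, with 2646 above 0 and 3236 below. Of 15 B cell transcription factors 7 were measured (a mean of at least 10 CPM over the 5 IgM groups), and all 7 were above 0, with a median of 0.48, or 0.23 by all UMIs, where the median of all genes is −0.28. None of the 7 was outside the range by 2-fold. By library the median was 0.47 against spleen B220-2NBDG+, 0.04 against spleen B220+2NBDG-, 0.36 against spleen B220+2NBDG+ and 0.99 against bone marrow. The medians of all genes in these comparisons were 0.02, −0.19, −0.04 and 0.06. The list thus lay above all genes in each, and by least against spleen B220+2NBDG-. The lists of B cell and follicular B cell markers had medians of 0.73 (8 of 11 above 0) and 0.82 (4 of 5 above 0) over the mean of 4. By library, in the same order, the B cell marker medians were 0.85, 0.21, 0.01 and 0.38, so the list was not higher against spleen B220+2NBDG+. The follicular marker medians were 0.61, 0.81, 0.97 and 0.89. Irf8, which acts in B cell development, was at 110 CPM in the IgM kappa cells, against 74.6, 107, 86.4 and 55.6 CPM in the 4 libraries in the same order. Ets1, a factor that restrains plasma cell formation, was at 22.3 CPM, against 16.1, 21.8, 10.4 and 9.54 CPM. Pax5, Spib, Bcl6 and Ciita were not measured, with 0 UMIs each in the IgM kappa cells. The plasma cell factors had a median of −0.07, with 5 of 13 above 0. Prdm1 was at 53.8 CPM in the IgM kappa cells, against 54.8, 40.6, 48.6 and 54.1 CPM, and Irf4 at 99.9 CPM, against 99.7, 94.4, 98.6 and 130 CPM. Neither was the highest or the lowest of the 5 groups.

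Surface and receptor genes varied by list. B cell surface genes had a median of 0.19, with 9 of 12 above 0, which by all UMIs is −0.06. Cd83 was at 42.9 CPM in the IgM kappa cells, against 23.5, 25.6, 18.6 and 34.5 CPM, above all 4. Plasma cell surface genes had a median of 0.06, with 12 of 16 above 0, which by all UMIs is −0.19. Tnfrsf17, the receptor BCMA that carries survival signals, was at 354 CPM in the IgM kappa cells, against 376, 236, 359 and 475 CPM. The inhibitory and Fc receptors had a median of 0.26, with 6 of 10 above 0, which by all UMIs is 0.01. Fcmr, the receptor for IgM, was at 75.6 CPM in the IgM kappa cells, against 29.2, 134, 89.5 and 17.0 CPM, between the B220-negative and the B220-positive groups.

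MHC class II genes, which present antigen to T cells, divided the comparisons. Their median against the mean of the 4 libraries was −0.30, or −0.10 when each cell counts alike, but 0.85 against spleen B220-2NBDG+, −1.18 against spleen B220+2NBDG-, −0.86 against spleen B220+2NBDG+ and 0.75 against bone marrow. H2-Aa was at 135 CPM in the IgM kappa cells, against 58.1, 747, 374 and 46.6 CPM in these 4 libraries. H2-Ab1 was at 575 CPM in the IgM kappa cells, against 421, 2490, 1769 and 342 CPM. For both genes the IgM kappa cells lay above both B220-negative groups and below both B220-positive ones.

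Genes of the secretory machinery, of oxidative phosphorylation and of the proteasome were slightly lower in the IgM kappa cells, read against the mean of 4. The sign of the 4 medians below held under every scaling tried. Of 28 genes of the unfolded protein response 25 were below 0 (median −0.15), of 29 genes of translocation and vesicle transport 28 (median −0.25), of 32 nuclear genes of oxidative phosphorylation 30 (median −0.20), and of 24 proteasome subunits all 24 (median −0.18). Each of the 4 medians was lowest against spleen B220+2NBDG-, where the median of all genes was also lowest, at −0.19. For the unfolded protein response the median was 0.01 against spleen B220-2NBDG+, −0.62 against spleen B220+2NBDG-, −0.29 against spleen B220+2NBDG+ and 0.36 against bone marrow. In the same order the medians for translocation and vesicle transport were −0.03, −0.62, −0.32 and 0.11. Those for oxidative phosphorylation were −0.04, −0.47, −0.15 and −0.10, and those for the proteasome 0.01, −0.48, −0.09 and −0.12. Hspa5, the chaperone BiP, was at 1637 CPM in the IgM kappa cells, against 1581, 3281, 1949 and 1152 CPM. Survival genes of the Bcl2 family (median 0.02, 6 of 10 above 0) and B-1 genes (median −0.01, 3 of 6 above 0) lay near the median of all genes and changed sign with the scaling.

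**Figure D2:**
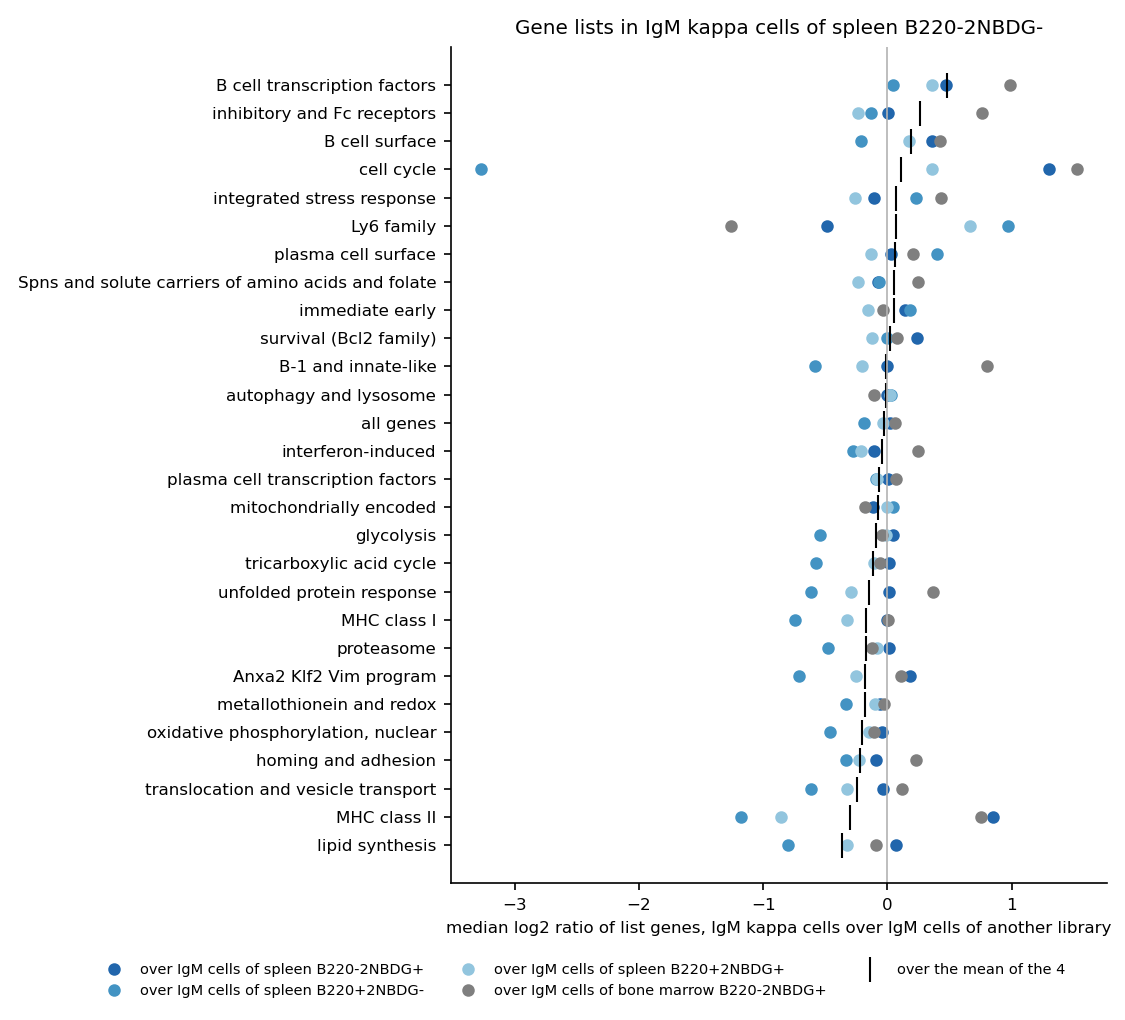
Median log2 ratio of the lists of gene programs, IgM kappa cells over the IgM cells of each other library (points) and over the mean of the 4 (vertical ticks), sorted by that mean; program lists with at least 5 measured genes are shown, and lists of cell type markers are not. Among the lists drawn, B cell transcription factors lie highest over the mean of 4 at 0.48, and the cell cycle list at −3.27 against spleen B220+2NBDG- is the farthest point from 0.

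Each other gate was then compared alone. Against IgM cells of spleen B220-2NBDG+, which differ in the gate by 2NBDG uptake, 58 of 3698 genes were higher in the IgM kappa cells (1.57%) and 31 lower (0.838%), 2.41% in all; scaled to all UMIs the counts were 23 and 36. Without the 20 genes that set whole libraries apart in all their cells, 46 genes were higher and 23 lower. Apoe, apolipoprotein E, was 12.9 times higher (10.1 to 16.5), at 382 CPM against 29.7 CPM. Cd52 was 2.099 times higher (2.00004 to 2.204), at 1904 CPM against 907 CPM. Mt1 and Mt2, metallothioneins that bind zinc, were lower, at 164 CPM against 494 CPM and at 56.1 CPM against 241 CPM. The metallothionein pair was also lower than in bone marrow, the other 2NBDG-positive B220-negative gate. Of the list members, 2 of 7 MHC class II genes and 0 of 27 unfolded protein response genes were higher.

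Against IgM cells of spleen B220+2NBDG-, which differ in the gate by B220, 111 of 4032 genes were higher (2.75%) and 282 lower (6.99%), 9.75% in all; without Jchain in the total the counts were 229 and 183, by all UMIs 23 and 814, and by TMM factors 146 and 191. Jchain itself was 2.12 times higher (2.11 to 2.13), at 245587 CPM against 115704 CPM. Of the cell cycle list, 25 of 27 genes tested were lower in the IgM kappa cells; Mki67, a marker of dividing cells, was at 10.9 CPM against 68.9 CPM. When cycling cells were left out of both groups, 158 genes were lower. Apoe was at 382 CPM against 597 CPM, a ratio of 0.640 (0.597 to 0.685). Spns3 was 16.2 times higher (9.26 to 31.0), and Ly6k, a member of the Ly6 family of surface proteins, 4.35 times higher (3.83 to 4.96), at 342 CPM against 78.5 CPM. Cxcr3, a chemokine receptor for inflamed tissue, was at 6.01 CPM against 82.6 CPM. Of 8 MHC class II genes 5 were lower, and of 28 unfolded protein response genes 7.

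Against IgM cells of spleen B220+2NBDG+, 42 of 3764 genes were higher (1.12%) and 32 lower (0.85%), 1.97% in all; without Jchain the counts were 71 and 28. Cxcr3 was again lower, at 6.01 CPM against 45.9 CPM. Gpx3, a secreted glutathione peroxidase, was at 6.58 CPM against 81.4 CPM. Slpi, a secreted protease inhibitor, was lower at 2962 CPM against 7884 CPM. Cxcr3 and Gpx3 were low in all 3 B220-negative IgM groups, at 6.58 CPM or less. Ly6d, a marker of the B lineage, was higher at 2278 CPM against 798 CPM, as it was in spleen B220-2NBDG+ (2059 CPM) and in bone marrow (2364 CPM).

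Against IgM cells of bone marrow, 81 of 3667 genes were higher in the IgM kappa cells (2.21%) and 63 lower (1.72%), 3.93% in all; by all UMIs the counts were 20 and 50, and without Jchain 132 and 59. Apoe was 48.0 times higher (29.0 to 86.0), at 382 CPM against 7.95 CPM. Lower genes included Mt1, at 164 CPM against 2078 CPM, Ly6c2, at 682 CPM against 3142 CPM, Ly6k, at 342 CPM against 1171 CPM, and Cd52, at 1904 CPM against 5705 CPM. Matk, a kinase of blood cells, was at 1.43 CPM against 86.9 CPM, and Cldn7, a tight junction protein, at 6.30 CPM against 138 CPM. Of the Ly6 family, 3 of 6 genes tested were lower. Tissue and 2NBDG gate both differ in this comparison and cannot be told apart.

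Within the library, light chain and isotype could be compared without a change of library. Against the 113 IgM lambda cells, 98 of 2609 genes were higher in the IgM kappa cells (3.76%) and 7 lower (0.268%), 4.02% in all. By all UMIs the counts were 9 and 7, where the minimum of 25 CPM is of all UMIs and so is stricter. The median log2 ratio of all genes hardly moved, at 0.09 as scaled here and 0.08 by all UMIs. Only genes of at least 107 CPM reach 50 UMIs in the lambda group, against 14.3 CPM in the kappa group, so fewer genes could be called lower. H2-Aa was 7.88 times higher (3.96 to 18.3), at 135 CPM against 17.1 CPM, and Slpi 2.67 times higher (2.45 to 2.92), at 2962 CPM against 1108 CPM. Ms4a1 was lower at 207 CPM against 496 CPM, a ratio of 0.417 (0.360 to 0.486), and Mt2 at 56.1 CPM against 158 CPM. Spns3, Bcl2 and Ebf1 had ratios of 0.946, 1.03 and 0.968, each with an interval that included 1.

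Against the 135 IgA cells, 305 of 2628 genes were higher in the IgM kappa cells (11.6%) and 133 lower (5.06%), 16.7% in all; by all UMIs the counts were 69 and 362, and without Jchain 483 and 102. Ccr10, a chemokine receptor, was lower at 13.7 CPM against 444 CPM, and Itgb7, an integrin chain, at 19.5 CPM against 576 CPM. Of the homing and adhesion list 5 of 10 genes tested were lower and 1 was higher. Anxa2 was at 8.02 CPM against 638 CPM, Vim, which encodes vimentin, at 15.2 CPM against 358 CPM, and Lgals3 at 2.00 CPM against 127 CPM. Of the list built around Anxa2, Klf2 and Vim, 10 of 11 genes tested were lower in the IgM kappa cells. Genes that were higher included Ly6a, at 1602 CPM against 360 CPM, Ms4a1, at 207 CPM against 34.3 CPM, and Gpr18, at 143 CPM against 5.15 CPM, where IgA cells held 3 UMIs.

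Variation inside the IgM kappa cells was described in 912 cells thinned to 1000 non-immunoglobulin UMIs, which left out 6 shallower cells. For 1059 genes with a mean of at least 0.1 UMI per thinned cell, spread was measured as (variance − mean) / mean squared, which is near 0 for a gene that varies by counting alone; its median was 0.110. Apoe stood far above all others at 118.6. A UMI of Apoe was found in 10.6% of thinned cells, 1.21% held 5 or more, the highest cell held 159, and the 10% of cells with the most held 98.8% of its UMIs. The CPM of Apoe is therefore set by a few cells. Apoe is also a gene of macrophages. Of the macrophage or monocyte list, C1qa, Lyz2 and Adgre1 had 0 UMIs over all IgM kappa cells, while the whole list summed to 20.6 CPM. Whether RNA of macrophages adds to Apoe was not tested.

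Next in spread were Ly6k (11.7), Ly6c2 (9.90), Gm8369 (7.14), H2-Aa (6.95) and Mt1 (5.77). Ly6k was found in 11.5% of thinned cells with up to 16 UMIs, and Ly6c2 in 23.03% with up to 26. H2-Aa was found in 10.9% of cells and Gm8369 in 9.65%. Slpi, with a mean of 2.74 UMIs, was found in 63.5% of cells and reached 92 UMIs (spread 3.50), and Prg2, with a mean of 2.12, reached 33 UMIs (2.18). Apart from Slpi and Prg2, each of these genes was seen in a minority of the IgM kappa cells at this depth. A UMI can also come from free RNA in the droplets, which was not measured for these genes. In IgM lambda and IgA cells of the same library the thinned shares were 13.5% and 1.504% for Apoe, 0.901% and 13.5% for H2-Aa, 27.9% and 26.3% for Ly6c2, and 34.2% and 33.1% for Slpi. In IgM cells of spleen B220+2NBDG- Apoe was found in 11.3%.

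**Figure D3:**
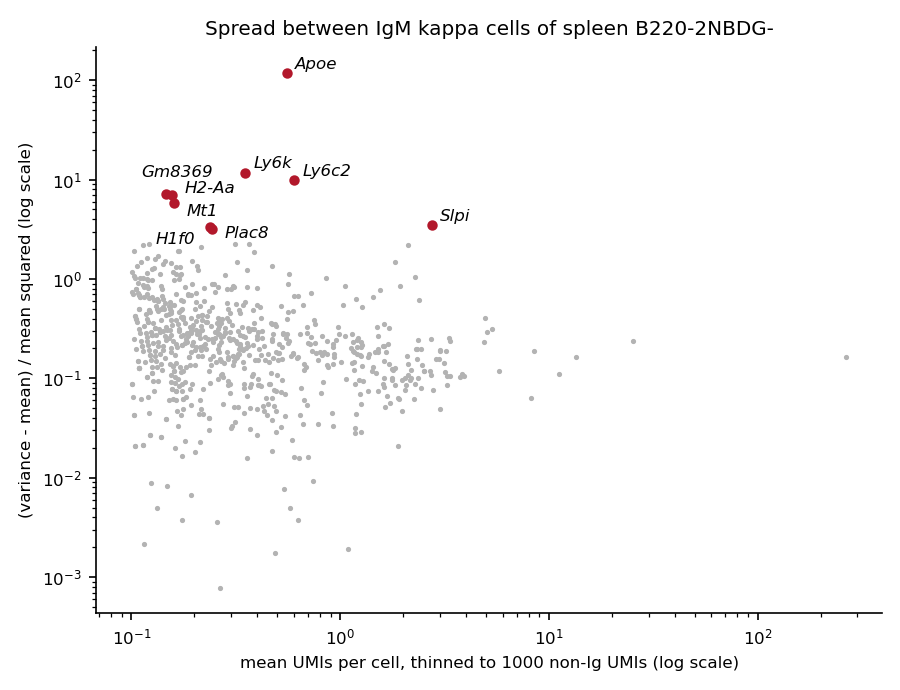
Spread between thinned IgM kappa cells, (variance − mean) / mean squared, against mean UMIs per cell, both on log axes; each point is 1 gene, 343 genes at or below 0 cannot be drawn, and the labelled points have the 9 largest values. Apoe at 118.6 lies far above Ly6k at 11.7, the next gene.

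Clustering the IgM kappa cells without immunoglobulin genes gave 4 sub-clusters, numbered by size; their number depends on the resolution, with 3 at a lower and 8 at a higher setting. Their leading genes define them and are a description. Sub-cluster 1 (341 cells, 37.1%) was led by Clec2g, Mt2, Spon1, Cox6a2 and Fcer1g and held the most UMIs, with a median of 14600. Sub-cluster 2 (292 cells, 31.8%) was led by Apoe, Crisp3, Ltb, Btg1, Pglyrp1, Egr1, Rapgef1, Cd83 and BE692007. Sub-cluster 3 (262 cells, 28.5%) was the shallowest, with a median of 6164 UMIs and 841 genes, and was led by Rrad and Jchain with folds of 2.54 and 1.74. None of the 3 was named: among the 10 leading genes, sub-cluster 1 held 1 fixed marker, Cox6a2 of the plasmacytoid dendritic list, sub-cluster 2 held Cd83 of the B cell list, and sub-cluster 3 held 1 plasma cell marker, Jchain. Sub-cluster 4 (23 cells, 2.51%), led by Pclaf, Hist1h2ap, Bcl2l11 and Hmgb2, was cycling cell-like, held all 9 cycling cells, and had 37.2% immunoglobulin UMIs, against 62.7 to 67.3% in the other 3.

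The light chain V genes of the IgM kappa cells were diverse. A V gene was assigned where a cell held 3 or more Igkv UMIs with at least 50% from 1 gene, which gave 864 cells (94.1%), with a median of 653.5 Igkv UMIs per cell and 72 genes seen. The 113 IgM lambda cells held a median of 8 Igkv UMIs, and 20 of them (17.7%) also got an assignment. This is taken as the background of the call, though the source of these UMIs was not tested. The inverse Simpson index, the number of equally common genes that would give the same diversity, was 22.4 in the IgM kappa cells, against 6.77 in the IgM kappa cells of spleen B220-2NBDG+, 12.7 in spleen B220+2NBDG-, 5.17 in spleen B220+2NBDG+ and 5.24 in bone marrow. By this index the IgM kappa cells of this gate were the most diverse of the 5, but the calls rest on unlike numbers of UMIs. The median Igkv UMIs per cell in the other libraries, in the same order, were 123, 46, 486 and 540. Igkv3-4 was also the most frequent gene of the background calls, in 5 of the 20 IgM lambda cells. The 3 mice of a pool cannot be told apart, and a shared V gene does not show that cells belong to 1 clone.

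Igkv3-4 was the most frequent gene, in 123 cells or 14.2% (12.0 to 16.8%), against 33.7% in spleen B220-2NBDG+, 21.1% in spleen B220+2NBDG-, 37.2% in spleen B220+2NBDG+ and 2.53% in bone marrow. Igkv5-39 was found in 58 cells or 6.71% (5.14 to 8.59%), against 10.5%, 14.6%, 18.6% and 33.6% in these libraries. The sum of both shares was lower in the IgM kappa cells of this gate than in each of the other 4 libraries. The next genes went the other way: Igkv1-117 and Igkv1-135, with 57 cells or 6.60% each, were found in at most 4.67% and 4.06% of the IgM kappa cells of another library, both in spleen B220-2NBDG+. Igkv1-110 was found in 29 cells (3.36%), against 1.45 to 2.53% elsewhere.

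**Figure D4:**
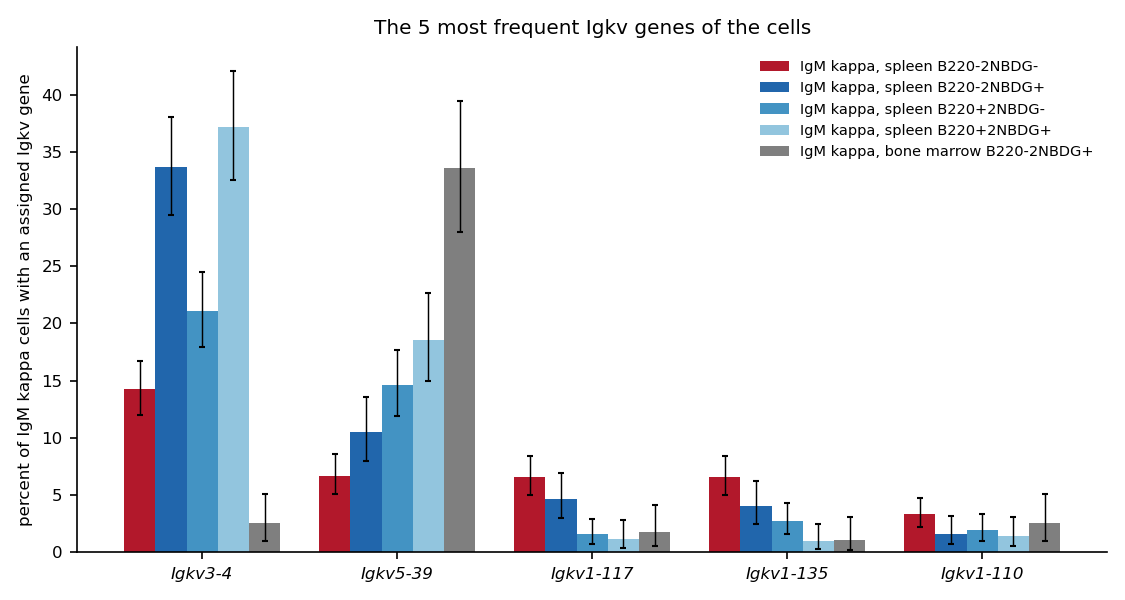
Share of IgM kappa cells assigned to each of the 5 most frequent Igkv genes of spleen B220-2NBDG-, in percent of cells with an assigned Igkv gene, for 5 libraries; bars start at 0 and whiskers are exact 95% binomial intervals (counting error only). Igkv3-4 reaches 14.2% in spleen B220-2NBDG- and 37.2% in spleen B220+2NBDG+, and Igkv5-39 reaches 33.6% in bone marrow.

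Heavy chain V genes could be assigned in 235 of the IgM kappa cells (25.6%), with a median of 3 Ighv UMIs per cell. Ighv1-53 was found in 25 of them, Ighv6-3 in 22, Ighv1-64 and Ighv1-9 in 15 each and Ighv3-6 in 12. Both chains were assigned in 224 cells, in 143 different pairs. Igkv3-4 occurred with Ighv1-64 in 13 cells and with Ighv1-53 in 12 cells. The Ighv1-53 pair was found in 32 of 116 such cells of spleen B220+2NBDG+ and in 10 of 74 of spleen B220+2NBDG-. Igkv14-126 occurred with Ighv11-2 in 5 of the 224 cells, a pair known in mice from B-1 cells that bind phosphatidylcholine. This pair was more frequent in bone marrow, in 9 of 50 such cells.

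Gene levels in the IgM kappa cells differed by V gene. Of the 123 Igkv3-4 cells 78 were in sub-cluster 1 and 2 in sub-cluster 2, and of the 58 Igkv5-39 cells 41 and 4. Of the 57 Igkv1-135 cells 11 were in sub-cluster 1 and 28 in sub-cluster 2, and of the 57 Igkv1-117 cells 12 and 25. Ebf1 was at 10.3 CPM in Igkv3-4 cells (5 UMIs) and 7.40 CPM in Igkv5-39 cells (2 UMIs), against 102 CPM with Igkv1-117, 53.4 CPM with Igkv1-135, 124 CPM with Igkv1-110 and 75.9 CPM with all other Igkv genes. Igkv3-4 and Igkv5-39 were joined as 181 cells, a grouping chosen after gene levels by V gene were seen, and set against the 683 cells with another Igkv gene.

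Several genes differed between the 181 cells and the rest, though not all genes of B cells did so or went the same way. Ebf1 was at 9.27 CPM in Igkv3-4 or Igkv5-39 cells, against 78.0 CPM in the other IgM kappa cells. Vpreb3 was at 7.95 CPM against 68.8 CPM, and Ms4a1 at 86.1 CPM against 241 CPM. Ly6d was at 777 CPM against 2692 CPM, and Ly6c2 at 217 CPM against 825 CPM. The label gene Spns3 was at 25.2 CPM against 65.6 CPM, while Bcl2 was at 132 CPM against 166 CPM. Slpi went the other way, at 5935 CPM against 2156 CPM, as did H2-Aa, at 180 CPM against 121 CPM. For these genes the 2 joined V genes were unlike. H2-Aa was at 107 CPM in Igkv3-4 cells, below the other cells, and at 311 CPM in Igkv5-39 cells. Slpi was at 7668 CPM in Igkv3-4 cells and at 2824 CPM in Igkv5-39 cells. Cd74, the invariant chain of MHC class II, was at 11630 CPM against 14160 CPM. Plasma cell genes differed little: Xbp1 was at 3348 CPM against 3224 CPM and Sdc1 at 522 CPM against 490 CPM. The median cell held 4103 and 3422 non-immunoglobulin UMIs in the 2 groups.

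The IgM kappa cells of the 4 other libraries, which took no part in choosing the V genes, allowed a test of the same contrast, with the library as a block (edgeR quasi-likelihood test, Benjamini-Hochberg adjustment over 6113 genes). Of these genes 8 were lower in Igkv3-4 or Igkv5-39 cells (0.131%) and 1 was higher (0.0164%) at an adjusted p under 0.05, and 360 had an unadjusted p under 0.05; without spleen B220-2NBDG+ the counts were 17 lower and 4 higher, and without the library as a block 0 and 0, with 91 genes at an unadjusted p under 0.05. The p-values measure the spread between these 4 libraries, which are different gates and not replicates. The 8 genes were Ly6d, Ifi27l2a, Cyp4f18, Vpreb3, Ms4a1, Ly6c2, Ebf1 and Tuba1b. All 8 had the same sign in each of the 4 libraries and in the IgM kappa cells of spleen B220-2NBDG-, where Tuba1b, at −0.07, was near 0.

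Ly6d fell by 1.15 on the log2 scale (SE 0.07, edgeR adjusted p = 1.42e-09). It was at 1046 CPM in Igkv3-4 or Igkv5-39 cells of spleen B220-2NBDG+ against 2721 CPM in the other cells there, at 445 against 1034 CPM in spleen B220+2NBDG-, at 509 against 1042 CPM in spleen B220+2NBDG+, and at 1434 against 2926 CPM in bone marrow. Vpreb3 fell by 1.74 (SE 0.22, edgeR adjusted p = 1.47e-04) and Ms4a1 by 0.98 (SE 0.14, edgeR adjusted p = 4.83e-04). Ebf1 fell by 1.71 (SE 0.28, edgeR adjusted p = 3.27e-03), with 4.02 against 38.5 CPM, 19.3 against 40.05 CPM, 12.3 against 32.2 CPM and 2.77 against 22.6 CPM in the 4 libraries in the same order. Ly6c2 fell by 1.06 (SE 0.16, edgeR adjusted p = 1.14e-03). The contrast in Ebf1, Vpreb3 and Ly6d thus held outside the library in which the V genes were chosen.

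Other genes of the contrast did not pass there. Slpi, 5935 against 2156 CPM in the IgM kappa cells of spleen B220-2NBDG-, changed by −0.02 (SE 0.11, edgeR adjusted p = 0.998) over the 4 libraries. Spns3 changed by −0.52 (SE 0.21, edgeR adjusted p = 0.72). The 1 higher gene, Phlda1 (1.99, SE 0.31, edgeR adjusted p = 1.58e-03), was at 250 against 40.4 CPM in bone marrow, but at 1.84 against 5.65 CPM in spleen B220+2NBDG- and at 2.65 against 15.7 CPM in the IgM kappa cells of spleen B220-2NBDG-, the opposite sign.

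**Figure D5:**
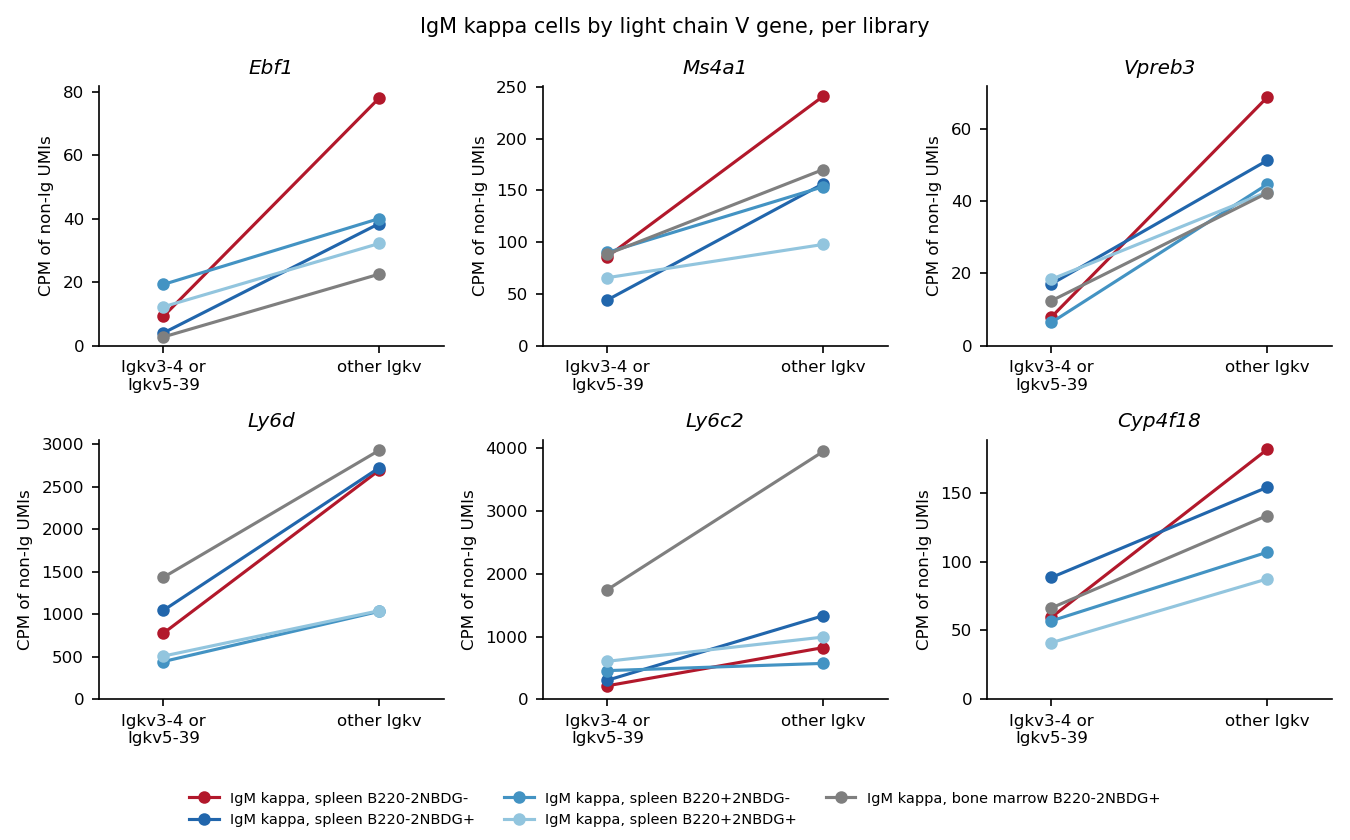
CPM of 6 genes in IgM kappa cells with Igkv3-4 or Igkv5-39 (left) and with another Igkv gene (right) of each of 5 libraries; lines join the 2 groups of a library. All 5 lines go up to the right for every gene, with Ebf1 at 9.27 and 78.0 CPM in spleen B220-2NBDG-.

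Libraries were then compared within each V gene group, which does not fully separate V gene use from gate. The other Igkv genes were not the same mix in each library. Igkv14-126 was in 24.9% of IgM kappa cells with an assigned Igkv gene in bone marrow, against 1.85% in spleen B220-2NBDG-. Igkv4-63 was in 12.0% of such cells in spleen B220-2NBDG+, against 2.08% in spleen B220-2NBDG-. Among cells with another Igkv gene, Ebf1 in the IgM kappa cells was 1.95 times (1.49 to 2.57) the highest other library, Pim2 1.68 times (1.42 to 2.00) and Ms4a1 1.42 times (1.20 to 1.68). Vpreb3 was 1.34 times (0.994 to 1.83) the highest, with an interval that includes 1. Among Igkv3-4 or Igkv5-39 cells the ratio was 0.480 for Ebf1 (0.172 to 1.17) and 0.956 for Ms4a1 (0.688 to 1.32). Pim2 was above the highest other library in these cells too, by 1.545 times (1.14 to 2.105). The higher Ebf1 and Ms4a1 of the gate were thus measured in cells without these 2 V genes, and few UMIs limit what could be seen in cells with them.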

How the data were processed

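Sorted cells went through 10x Genomics 3′ chemistry (version 2), per the labels' protocols, and reads were processed with Cell Ranger 2.1 on GRCm38, per the submitters' processing notes; the sources used here do not name the annotation or the barcode filter. The deposited tables hold raw UMI counts per gene and barcode, as the authors made them, for 33456 gene IDs, of which 32739 were found in GENCODE M21, used for symbols, positions and the 266 immunoglobulin genes. Near copies and overlapping genes can share reads in a 3′ library. No cell was removed. Labels give 1 library per gate from pooled mice, and the study states about 1000 cells a subset, where the tables hold 894 to 1296 barcodes.

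UMIs were summed per group and scaled to non-immunoglobulin UMIs (CPM). A gene was called at a ratio of 2 or more where the higher group reached 25 CPM and 50 UMIs; counts under 3 were raised to 3. Intervals are exact 95% intervals (conditional binomial for ratios, Poisson for CPM, Clopper-Pearson for shares) and cover counting error only; no p-value was computed between single libraries. Thinning, sub-clusters (2000 variable genes, 20 components, 15 neighbours, Leiden resolution 0.5) and Scrublet (7 members called, kept) used scanpy 1.11.5, leidenalg 0.10.2 and igraph 0.11.9 in Python 3.11.15. The V gene test used edgeR 4.0.16 in R 4.3.3 (filterByExpr, TMM, library as block: both cell groups of a pair come from 1 library) on UMIs summed per library and V gene group; DESeq2 1.42.0 was the alternative. Both rules were run on simulated data. For the V gene test these data held no differences between gates, unlike the 4 libraries, so that run does not bear on the calls. Named genes were the label markers, the 15 highest and 15 lowest genes past the range rule, the 5 highest and 5 lowest of each pair, examples from 27 gene lists, the 20 genes of largest spread, 10 leading genes per sub-cluster and the 5 most frequent V genes per class; genes of the 1.5-fold list, of the V gene contrast and Slpi, Cd52 and Ly6a were named after their values were seen. The members, lists and rules were chosen with earlier results of these data known. A few genes that enter these counts and list medians are not reported here by name. Alternatives to scaling, thresholds, doublets, cycling cells and libraries are given at the end.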

Additional observations from a re-analysis of the deposited data

How the results depend on the processing

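Of 104 log2 ratios of single genes under alternatives, 89 moved by less than their counting error, and of 216 list medians 182 moved by less than 0.1; 8 of 13 genes and all 27 lists moved when scaled to all UMIs, which moves the median of all genes too. The sign differed in 5 gene and 20 list values, none of a gene past the range rule. The other values that moved were the number of sub-clusters (3 and 8) and the shares of cells with Spns3 or Bcl2 at 1500 UMIs (7.37% and 19.2%) or unthinned (17.6% and 38.1%). Counts of called genes depended on the scaling total and the minimum: of 184, 123 stayed within 1.5 times and 61 did not. The minimum of 25 CPM is stricter when all UMIs form the total, so counts by all UMIs mix the scaling with the minimum. Scaled to all UMIs, 1 gene was above the range; higher and lower counts were 23 and 36 against spleen B220-2NBDG+, 23 and 814 against spleen B220+2NBDG-, 17 and 14 against spleen B220+2NBDG+, 20 and 50 against bone marrow, 9 and 7 against lambda, and 69 and 362 against IgA cells. Without Jchain in the total, 6 genes were above the range; higher counts were 229 (183 lower), 71, 132, 150 and 483 against spleen B220+2NBDG-, spleen B220+2NBDG+, bone marrow, lambda and IgA. Without cycling cells, 158 genes were lower than in spleen B220+2NBDG-. At a minimum of 10 CPM and 20 UMIs, higher and lower counts were 13 and 1 for the range, then 160 and 80, 262 and 467, 131 and 84, 227 and 159, 297 and 16, and 676 and 277 for the pairs in the order above. With no minimum they were 37 and 23, then 570 and 438, 888 and 991, 511 and 470, 572 and 632, 297 and 305, and 676 and 907. At 1.5-fold the range held 15 and 7. TMM factors, means over cells, 90% dominance (901 cells), doublets left out, kappa cells alone as reference and library-split genes left out moved no count by over 1.5 times. Leaving out each library in turn gave 2 to 7 genes above the range (7 without spleen B220+2NBDG-) and 0 to 2 below it. In the V gene test it gave 1 to 4 higher and 8 to 17 lower genes, the most without spleen B220-2NBDG+; adding spleen B220-2NBDG- gave 11 and 27, DESeq2 0 higher (21 at an unadjusted p under 0.05) and 6 lower, and the fit without the replicate block (the library) 0 and 0 by edgeR, with 91 at an unadjusted p under 0.05. These last alternatives, the 1.5-fold limit and the omission of 3 members with little Igkc were chosen after seeing the data. Between gates, no paired analysis was possible because each gate is 1 library. With 1 library per gate, differences between gates and between libraries cannot be told apart, and groups of 113 and 135 cells limit calls to abundant genes.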

Other observations

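Lists of immediate early, interferon-induced and autophagy genes lay within 0.1 of the median log2 ratio of all genes, −0.03, for the IgM kappa cells over the mean of the IgM cells of the other 4 libraries. Immediate early genes had a median of 0.05, with 9 of 12 measured members above 0. Junb, a subunit of the AP-1 factor, was at 306 CPM in the IgM kappa cells, against 353, 134, 253 and 393 CPM in spleen B220-2NBDG+, spleen B220+2NBDG-, spleen B220+2NBDG+ and bone marrow. Interferon-induced genes had a median of −0.04, with 6 of 14 above 0, and genes of autophagy and the lysosome a median of −0.02, with 11 of 25 above 0. By all UMIs the immediate early median is −0.20, and without Jchain in the total the other 2 are 0.04 and 0.06, so these directions depend on the scaling.

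Genes of glucose handling, on which the 2NBDG gate bears, varied. Glycolysis genes had a median of −0.09, with 5 of 13 above 0. Against the 4 libraries in the same order their medians were 0.05, −0.55, −0.01 and −0.04, and those of all genes 0.02, −0.19, −0.04 and 0.06. Of 11 glycolysis genes tested 3 were lower than in spleen B220+2NBDG-, where 282 of 4032 genes were lower (6.99%), a count that depends on the scaling. Slc2a1, the glucose transporter GLUT1, was at 10.3 CPM in the IgM kappa cells, against 9.47, 13.7, 6.36 and 10.6 CPM. Hk2, a hexokinase, had 2.86 CPM in the IgM kappa cells, against 7.83, 12.1, 7.27 and 7.42 CPM, the lowest of the 5, from 10 UMIs. The level was 2.54 times higher (1.08 to 6.26) in spleen B220+2NBDG+, the nearest, and the intervals against all 4 libraries leave out 1, but Hk2 is under the minimum of 25 CPM for a call. Pkm, pyruvate kinase, was at 190 CPM in the IgM kappa cells, against 181, 500, 236 and 178 CPM, and was high in spleen B220+2NBDG- alone. Lipid synthesis genes had a median of −0.36, with 2 of 10 measured members above 0, and of 0.07, −0.80, −0.33 and −0.09 against the 4 libraries.

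Amino acid carriers and their relatives, the list that holds Spns3, had a median of 0.06, with 5 of 9 above 0, which is −0.20 by all UMIs and −0.08 as a mean over cells. Slc3a2, the heavy chain of several amino acid transporters, was at 2202 CPM in the IgM kappa cells, against 2969, 1292, 2704 and 1855 CPM. Spns1 was at 10.0 CPM, against 11.5, 10.5, 8.64 and 11.7 CPM, and so did not follow Spns3.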
